A study of Mus musculus with 9 samples.

Results

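The genes described here are the immunoglobulin variable (V) segments of the mouse heavy, kappa and lambda loci. Members were the genes annotated as an immunoglobulin V gene or V pseudogene, with a symbol starting Ighv, Igkv or Iglv, whose value was 10 or more in at least 1 of 9 RNA-seq libraries. This left 197 of the 43629 genes in the table: 108 heavy chain, 86 kappa and 3 lambda segments, of which 190 are annotated as genes and 7 as pseudogenes. A further 82 annotated V segments are not members, 44 of them at 0 in every library and 38 above 0 but under 10 throughout. The threshold fell between Igkv18-36, whose highest value was 11 in a WT library, and Igkv5-37, whose highest value was 8 in a WT library. Libraries were made from bone marrow cells positively selected for c-KIT (CD117), a receptor of blood progenitors. All mice carry the strain label C57BL/6 and had received pIpC, a double-stranded RNA analogue that induces interferon.

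There were 3 groups of 3 libraries. KI_Chd7del mice carried Chd7f/f, Mx1-Cre and Cbfb+/56M, so that Cre can delete the chromatin remodeller gene Chd7 and switch on the CBFB-MYH11 leukaemia fusion knocked into 1 Cbfb allele. KI mice carried Mx1-Cre and Cbfb+/56M and so share the Cre and the fusion allele with KI_Chd7del mice. WT mice are labelled wild type with no Cre named, so effects of the Cre and of the fusion cannot be told apart in a comparison with WT. Mx1-Cre is driven by an interferon-inducible promoter that is active in blood cells and in other tissues. The labels do not say whether libraries came from separate mice, and the p-values therefore cover only the variation among these libraries, some of which may be technical.

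A V segment supplies most of the variable domain of an antibody chain. In developing B cells the RAG recombinase joins 1 V segment to a D and a J segment at the heavy locus, or to a J segment at a light chain locus, and the joined exon is spliced to a constant region. Each B cell and its descendants therefore transcribe mainly 1 heavy and 1 light V segment, and a plasma cell contributes far more of this RNA than a resting B cell. Unjoined segments can also be transcribed at a low level in early B cell development. Usage here means a segment's share of the summed V values of a library, and evenness is Pielou's index, which is 1 when all segments are used equally. In bulk samples, fewer cells of a type and less RNA per cell cannot be told apart.

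The heavy segments lie at chr12:113578504-116000461, the kappa segments at chr6:67555497-70704177 and the lambda segments at chr16:19085017-19260859 (GRCm38, positions from GENCODE M21). Each gene spans a leader exon and a V exon. The ends of 9 abundant segments are shown first because the values below turn on them. Each line gives the last 60 bases of the annotated transcript, 5′ to 3′ on the strand of the gene, with the last TGT in capitals. TGT is the codon of the conserved cysteine that opens the third antigen-binding loop, and the bases after it are joined to a D or J segment. The heavy and lambda segments shown, Igkv8-30 and Igkv12-46 lie on the minus strand, and Igkv14-126 and Igkv15-103 on the plus strand. Their positions are chr12:114288152-114288582 (Ighv3-6), chr12:114048241-114048812 (Ighv11-2), chr12:114788372-114788805 (Ighv1-26), chr12:115158403-115158835 (Ighv1-53), chr6:67896172-67896642 (Igkv14-126), chr6:70117061-70117620 (Igkv8-30), chr6:68437440-68437925 (Igkv15-103), chr6:69764523-69765022 (Igkv12-46) and chr16:19085017-19085500 (Iglv1).
Ighv3-6: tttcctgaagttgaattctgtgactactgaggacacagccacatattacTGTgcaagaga
Ighv11-2: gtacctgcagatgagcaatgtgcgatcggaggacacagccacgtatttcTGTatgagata
Ighv1-26: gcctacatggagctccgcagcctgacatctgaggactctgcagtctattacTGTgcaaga
Ighv1-53: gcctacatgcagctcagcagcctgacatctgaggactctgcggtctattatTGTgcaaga
Igkv14-126: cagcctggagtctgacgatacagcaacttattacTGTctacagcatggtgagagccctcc
Igkv8-30: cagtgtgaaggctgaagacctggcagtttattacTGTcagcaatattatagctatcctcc
Igkv15-103: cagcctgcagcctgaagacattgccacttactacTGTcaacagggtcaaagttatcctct
Igkv12-46: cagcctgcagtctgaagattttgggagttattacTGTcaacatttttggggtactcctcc
Iglv1: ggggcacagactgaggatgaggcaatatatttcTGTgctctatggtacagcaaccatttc

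The members resemble each other closely, which limits every value below. A segment was a median of 91.7% identical to its closest V segment, and 48 of 197 were at least 95% identical to it. Of the 197 transcripts, 37 shared no stretch of 50 bases with a transcript of any other annotated gene, on either strand, and 30 shared over 50% of such stretches. How reads were divided among near-identical segments is not given in the sources used here, so the value of a single segment is uncertain where stretches are shared.

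Values are normalised read numbers, and column totals ran from 37538447 to 38076394 in KI_Chd7del libraries, 37716763 to 39002839 in KI libraries and 43222301 to 46159426 in WT libraries. The read numbers before scaling are not in the file, so no counting interval is given. Chd7 had 1862, 1794 and 1921 in KI_Chd7del libraries, 1979, 2934 and 2009 in KI libraries and 3471, 3745 and 3982 in WT libraries. KI_Chd7del and KI ranges did not overlap, but a value over the whole gene does not show whether part of it was deleted. Myh11, the fusion partner, had 187, 164 and 176 in KI_Chd7del libraries, 219, 194 and 176 in KI libraries and 8, 9 and 5 in WT libraries. All 7 progenitor markers were detected, and their summed values were 207670 to 285230 in KI_Chd7del libraries, 127852 to 155836 in KI libraries and 213864 to 258372 in WT libraries. Kit itself had 6131, 7732 and 8508 in KI_Chd7del libraries, 3868, 3226 and 3521 in KI libraries and 7362, 7354 and 7797 in WT libraries. The 7 markers did not move together in KI against WT, where 3 rose and 4 fell (limma adjusted p under 0.05). Of all genes tested, 31.8% rose and 27.2% fell there. In KI_Chd7del against KI, 5 rose and 1 fell (17.5% and 22.9% of all genes). In KI_Chd7del against WT, 4 rose and 1 fell (24% and 24.3% of all genes). Each of these single falls was lost without certain libraries.

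Summed V segment values were lower in KI_Chd7del than in KI and WT libraries, and lower in KI than in WT libraries, with a wide spread in each group. The 197 members summed to 12640, 26751 and 22299 in KI_Chd7del libraries, 58578, 37725 and 21224 in KI libraries and 61198, 63828 and 130491 in WT libraries. KI library 3 lay inside the KI_Chd7del range, while KI and WT ranges did not overlap, their nearest libraries being 58578 in KI and 61198 in WT. The members made up 0.0332% to 0.0703% of KI_Chd7del libraries, 0.0563% to 0.150% of KI libraries and 0.140% to 0.283% of WT libraries. The log2 ratio of group means was -0.93 for KI_Chd7del against KI, -1.12 for KI against WT and -2.05 for KI_Chd7del against WT. With 1 library left out at a time, these ranged from -1.23 without KI library 3 to -0.52 without KI library 1 for KI_Chd7del against KI. They ranged from -1.53 without KI library 1 to -0.67 without WT library 3 for KI against WT. For KI_Chd7del against WT they ranged from -2.29 without KI_Chd7del library 2 to -1.60 without WT library 3.

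Heavy and kappa segments carried nearly all of the sum. Heavy segments summed to 4248, 8146 and 7578 in KI_Chd7del libraries, 23496, 14739 and 8534 in KI libraries and 20773, 21688 and 44928 in WT libraries. The KI_Chd7del heavy sums lay below those of every KI and WT library, and KI library 1 overlapped WT. Kappa segments summed to 7951, 17653 and 13653 in KI_Chd7del libraries, 33239, 20435 and 11977 in KI libraries and 36376, 37544 and 82721 in WT libraries. For kappa, KI library 3 lay below 2 of the KI_Chd7del libraries, and every WT library lay above every KI library. Lambda segments summed to 441, 952 and 1068 in KI_Chd7del libraries, 1843, 2551 and 713 in KI libraries and 4049, 4596 and 2842 in WT libraries. Heavy segments made up 30.5% to 34.0% of the V sum in KI_Chd7del libraries, 39.1% to 40.2% in KI libraries and 33.9% to 34.4% in WT libraries. The KI libraries therefore had the highest heavy share of the 3 groups, without overlap.

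**Figure D1:**
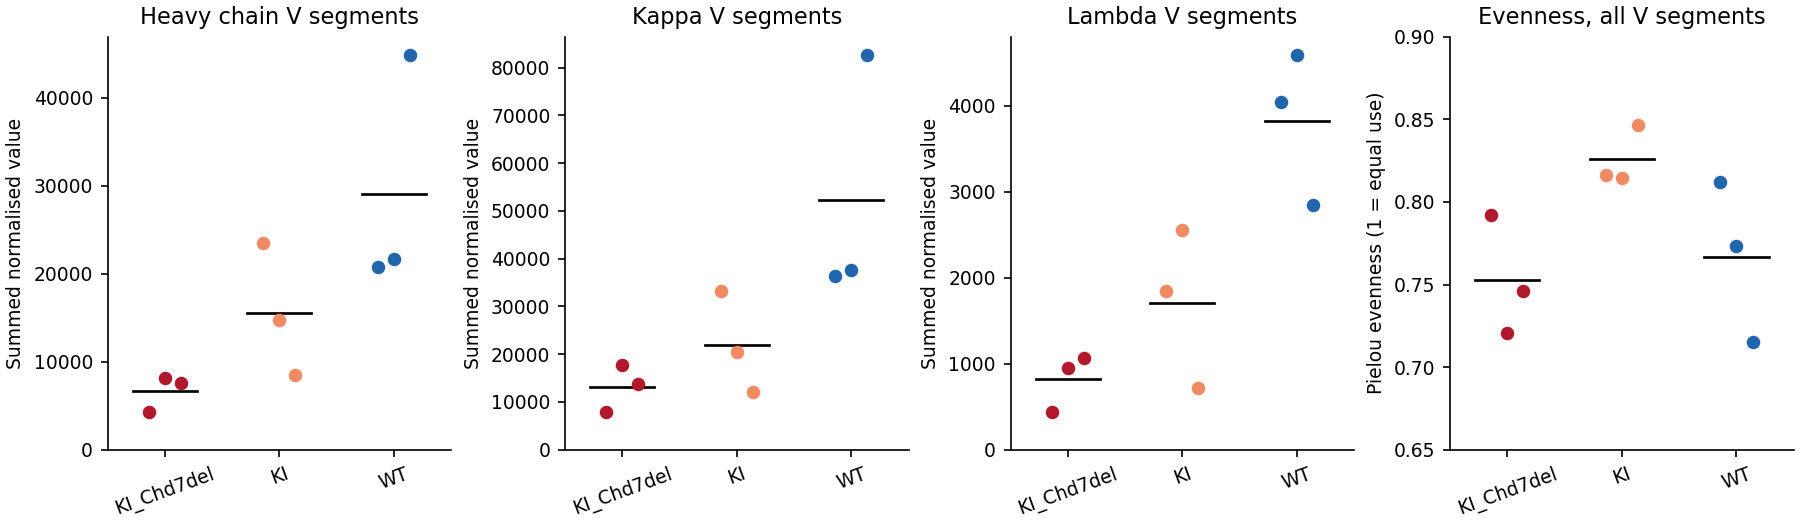
Summed normalised values of heavy, kappa and lambda V segments and the evenness of usage over all 197 segments, with 1 point per library and a line at the mean of each group of 3 (the evenness axis starts at 0.65). KI_Chd7del libraries have the lowest mean sum at each locus, and the 3 KI libraries have the highest evenness, at 0.816, 0.815 and 0.847.

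Usage was more even in KI libraries than in the other groups. Evenness was 0.792, 0.721 and 0.746 in KI_Chd7del libraries (0.753 ± 0.036, SD, n = 3), 0.816, 0.815 and 0.847 in KI libraries (0.826 ± 0.018) and 0.812, 0.773 and 0.715 in WT libraries (0.767 ± 0.049). The 3 KI values lay above all others, although WT library 1 at 0.812 was close to KI library 2 at 0.815. Expressed as an effective number of equally used segments, this was 65.6, 45.0 and 51.5 in KI_Chd7del libraries, 74.5, 74.0 and 87.7 in KI libraries and 73.0, 59.5 and 43.7 in WT libraries. The difference in mean evenness was -0.073 for KI_Chd7del against KI and 0.059 for KI against WT, and it was -0.014 for KI_Chd7del against WT. With 1 library left out at a time, the differences ran from -0.092 to -0.057, from 0.033 without WT library 3 to 0.082 without WT library 1, and from -0.040 without WT library 3 to 0.0087 without WT library 1. The sign of the last comparison also turned without KI_Chd7del library 2, at 0.0021. No p is given for these indices, since they are scores over the members.

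KI libraries stood above the others in evenness at the kappa locus, and the groups overlapped at the heavy locus. Kappa evenness was 0.765, 0.713 and 0.688 in KI_Chd7del libraries, 0.810, 0.797 and 0.825 in KI libraries and 0.791, 0.738 and 0.690 in WT libraries. No KI_Chd7del or WT library reached the lowest KI library for kappa, the nearest being WT library 1. Heavy chain evenness was 0.790, 0.658 and 0.762 in KI_Chd7del libraries, 0.774, 0.796 and 0.839 in KI libraries and 0.823, 0.790 and 0.667 in WT libraries, and the groups overlapped. Fewer segments accounted for 50% of the V sum in KI_Chd7del libraries, at 14, 8 and 10, and in WT libraries, at 16, 11 and 7, than in KI libraries, at 17, 17 and 21. The lowest evenness values belonged to a WT library with the highest sum, WT library 3, and to KI_Chd7del library 2. Thinned to the lowest sum of the 9 libraries, 12640, evenness was 0.792, 0.720 and 0.745 in KI_Chd7del libraries, 0.815, 0.814 and 0.846 in KI libraries and 0.811, 0.772 and 0.714 in WT libraries. At that sum, the expected numbers of the 197 members above 0 were 179, 169 and 184 in KI_Chd7del libraries, 174, 177 and 178 in KI libraries and 180, 179 and 173 in WT libraries. The thinned values are expectations that treat the scaled values as reads, so the part of sequencing depth was not tested.

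**Figure D2:**
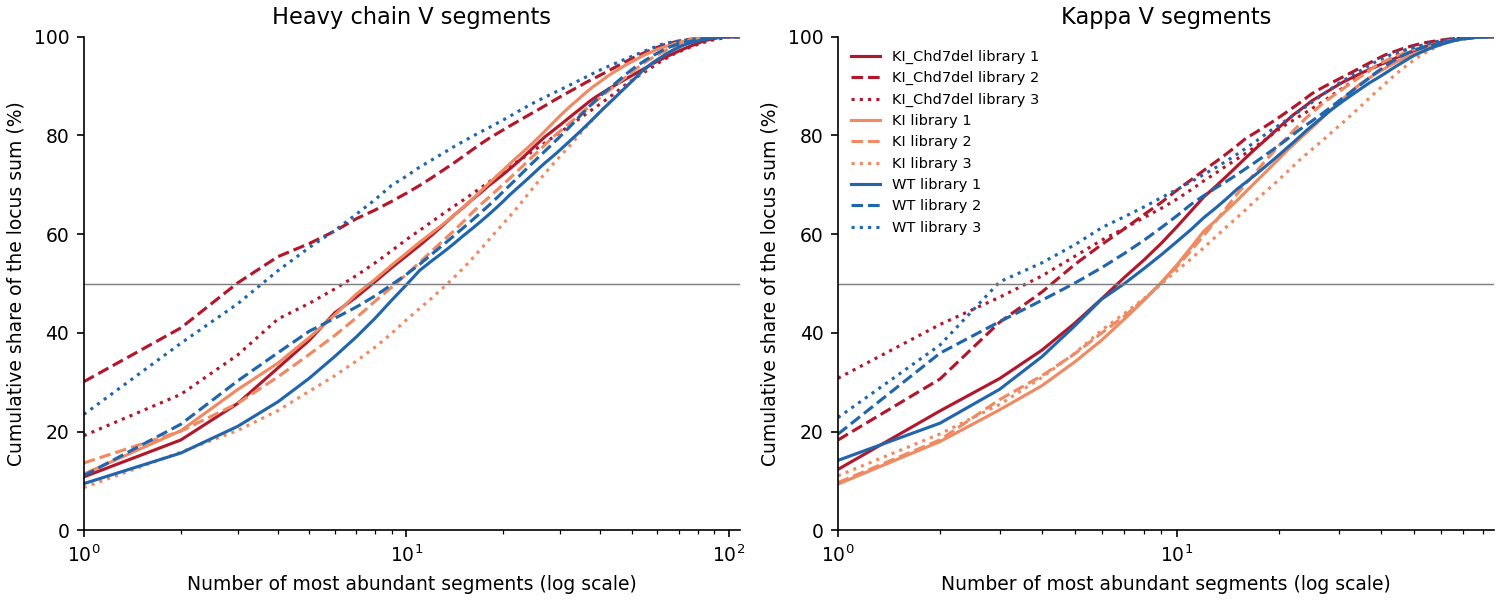
Cumulative share of the heavy (left) and kappa (right) V sum taken by the most abundant segments of each of the 9 libraries, against the number of segments on a log scale; the grey line marks 50%. In the kappa panel the 3 KI curves are the lowest at their start, with 9, 9 and 10 segments needed for 50% of the sum, against 7, 5 and 4 in KI_Chd7del libraries and 8, 5 and 3 in WT libraries.

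The leading segment differed from library to library, also within a group. Among heavy segments, Ighv3-6 led in KI_Chd7del library 1 with 460 (10.8% of the heavy sum), Ighv6-6 in library 2 with 2453 (30.1%) and Ighv7-1 in library 3 with 1453 (19.2%). Ighv1-9 led in KI libraries 1 and 2 with 2676 (11.4%) and 2011 (13.6%), and Ighv3-6 in KI library 3 with 739 (8.66%). Ighv6-3 led in WT library 1 with 1965 (9.46%), Ighv11-2 in WT library 2 with 2401 (11.1%) and Ighv3-6 in WT library 3 with 10549 (23.5%). No heavy segment led in all libraries of a group.

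Among kappa segments, Igkv15-103 led in KI_Chd7del libraries 1 and 3 with 981 (12.3% of the kappa sum) and 4206 (30.8%), and Igkv12-44 in library 2 with 3230 (18.3%). Igkv12-46 led in KI library 1 with 3112 (9.36%), and Igkv14-126 in KI libraries 2 and 3 with 1975 (9.66%) and 1322. Igkv5-39 led in WT library 1 with 5154 (14.2%), Igkv14-126 in WT library 2 with 7318 (19.5%) and Igkv8-30 in WT library 3 with 18887 (22.8%). Iglv1 led the lambda segments in all 9 libraries, with 59.5% to 90.6% of the lambda sum. Transcript lengths of the members ran from 329 to 501 bases. Dividing each value by its length left the leading segment as it was in 25 of 27 library and locus pairs, the exceptions being Igkv14-126 in place of Igkv15-103 in KI_Chd7del library 1 and Ighv1-26 in place of Ighv11-2 in WT library 2.

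Single libraries held much of many segments' RNA. Of the 197 members, 39 had over 50% of their 9-library sum in 1 library, 13 of them in WT library 3, 8 in KI library 1, 7 in KI_Chd7del library 2 and 6 in WT library 1. Ighv6-6 shows this in a KI_Chd7del library, with 82, 2453 and 172 in KI_Chd7del libraries, 315, 528 and 121 in KI libraries and 178, 272 and 497 in WT libraries. Igkv8-30 shows it in a WT library, with 458, 187 and 209 in KI_Chd7del libraries, 641, 684 and 179 in KI libraries and 1961, 666 and 18887 in WT libraries. The median within-group SD of log2 values over the 173 tested members was 1.08 in KI_Chd7del, 1.02 in KI and 0.865 in WT libraries. Over all 15997 genes tested it was 0.143 in KI_Chd7del, 0.133 in KI and 0.117 in WT libraries. Libraries of 1 group also shared only part of their usage. Between libraries of a group, 37.1% to 47.9% of usage was not in common within KI_Chd7del, 33.5% to 42.0% within KI and 31.9% to 51.3% within WT. Between groups the median was 51.2% for KI_Chd7del and KI libraries (37.9% to 52.8%), 44.9% for KI and WT libraries (34.5% to 48.2%) and 48.6% for KI_Chd7del and WT libraries (38.1% to 65.6%). These ranges overlap those within groups.

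**Figure D3:**
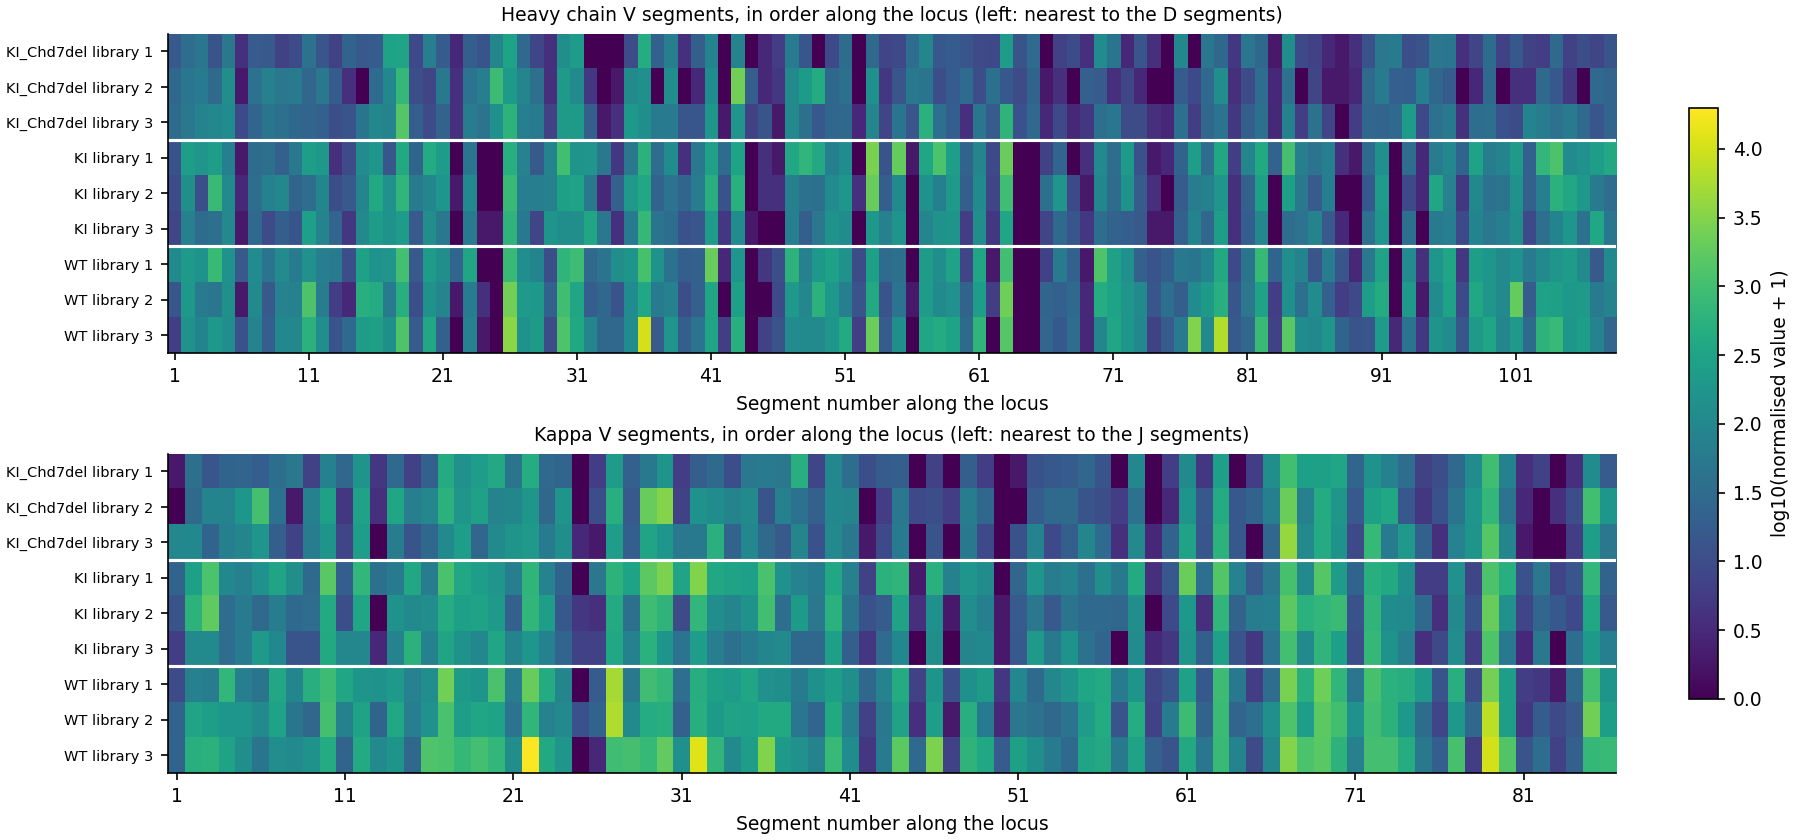
Values of all 108 heavy and 86 kappa V segments in the 9 libraries, as log10(normalised value + 1), in order along each locus and with KI_Chd7del libraries at the top. Bright single cells, such as Igkv8-30 at 18887 in WT library 3, mark segments concentrated in 1 library, and short columns that are lit in the KI_Chd7del rows and dark below mark the segments seen in that genotype.

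The most abundant segments varied in how they differed between groups. Per 100 bases, Igkv14-126 had the highest mean level of the kappa segments over the 9 libraries, at 873, and Ighv3-6 that of the heavy segments, at 459. The mean of Ighv3-6, and with it this rank, rests on WT library 3, where its level per 100 bases was 3014, against 38.3 to 321 in the other libraries. Igkv14-126 had 943, 711 and 1488 in KI_Chd7del libraries, 1266, 1975 and 1322 in KI libraries and 2499, 7318 and 10594 in WT libraries. Its log2 difference was -1.96 ± 0.48 in KI against WT (SE, limma adjusted p = 0.00673) and -2.53 ± 0.48 in KI_Chd7del against WT (adjusted p = 0.00241). SE here and below is the moderated SE of limma, which draws the spread of each gene towards that of all genes tested. Since the members spread more widely than most genes, their SE and p may be too small. Igkv5-39 had 230, 509 and 256 in KI_Chd7del libraries, 596, 420 and 362 in KI libraries and 5154, 6160 and 970 in WT libraries, so that all WT libraries lay above all others. Igkv1-110 had 282, 434 and 446 in KI_Chd7del libraries, 1460, 694 and 658 in KI libraries and 2274, 1626 and 1561 in WT libraries. It stepped down without overlap between the groups, with a log2 difference of -1.20 ± 0.31 in KI_Chd7del against KI (SE, limma adjusted p = 0.0144).

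Igkv15-103, the leading kappa segment of 2 KI_Chd7del libraries, did not follow the fall of the sum. It had 981, 2183 and 4206 in KI_Chd7del libraries, 1107, 1671 and 1017 in KI libraries and 2744, 1308 and 3195 in WT libraries, and the groups overlapped. Its log2 difference was 0.75 against KI and -0.12 against WT, and neither passed the test (limma adjusted p = 0.261 and 0.867). Its share of the kappa sum was 12.3%, 12.4% and 30.8% in KI_Chd7del libraries, 3.33%, 8.18% and 8.49% in KI libraries and 7.54%, 3.48% and 3.86% in WT libraries, so that the KI_Chd7del shares lay above all others. Ighv7-1 also overlapped between groups, with 318, 742 and 1453 in KI_Chd7del libraries, 412, 669 and 236 in KI libraries and 1034, 489 and 1299 in WT libraries. Ighv11-2, by contrast, had 314, 204 and 604 in KI_Chd7del libraries, 520, 828 and 614 in KI libraries and 782, 2401 and 3594 in WT libraries. It fell in KI_Chd7del against WT, with a log2 difference of -2.48 ± 0.55 (SE, limma adjusted p = 0.00517).

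Several other abundant segments had their lowest values in KI_Chd7del libraries. Ighv1-26 had 237, 14 and 635 in KI_Chd7del libraries, 2067, 951 and 333 in KI libraries and 989, 2263 and 1485 in WT libraries. Ighv1-53 had 27, 129 and 43 in KI_Chd7del libraries, 381, 177 and 253 in KI libraries and 406, 495 and 6482 in WT libraries, and stepped down without overlap. Ighv1-9 had 30, 143 and 90 in KI_Chd7del libraries, 2676, 2011 and 198 in KI libraries and 282, 406 and 2104 in WT libraries. All 3 of these segments belong to family Ighv1. Igkv12-46 had 19, 161 and 54 in KI_Chd7del libraries, 3112, 695 and 245 in KI libraries and 475, 507 and 12168 in WT libraries, and the KI_Chd7del values lay below all others. The remaining abundant segments, Ighv9-3, Ighv6-3, Igkv12-44 and Igkv6-23, had their highest values in WT, WT, KI_Chd7del and WT libraries. Ighv1-53 shares 57.6% and Ighv1-26 49.0% of 50-base stretches with transcripts of other genes, whereas Igkv14-126 and Igkv15-103 share none.

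The lambda segments are few. Iglv1 had 347, 799 and 635 in KI_Chd7del libraries, 1658, 2039 and 595 in KI libraries and 3371, 4165 and 2099 in WT libraries. It fell in KI_Chd7del against WT, with a log2 difference of -2.46 ± 0.48 (SE, limma adjusted p = 0.00264), and the KI_Chd7del and KI ranges overlapped. Iglv2 had 82, 107 and 385 in KI_Chd7del libraries, 133, 234 and 91 in KI libraries and 576, 280 and 634 in WT libraries. Iglv3 had 12, 46 and 48 in KI_Chd7del libraries, 52, 278 and 27 in KI libraries and 102, 151 and 109 in WT libraries. Every WT library exceeded every KI library for Iglv1 and Iglv2, and the KI range of Iglv3 enclosed the WT range.

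Of the 197 members, 173 had a value of 10 or more in 3 libraries or more. These were tested with limma among all 15997 such genes, a gene being called at an adjusted p under 0.05. Some members passed this filter only through the group in which they are high, so the counts below describe the tested members and support nothing further. In KI_Chd7del against KI, 54 were called (31.2%, against 40.4% of all genes tested), 7 higher and 47 lower. The share called lower, 27.2% of members and 22.9% of all genes, was close to the background, and the share called higher was 4.05% of members and 17.5% of all genes. Ranges did not overlap for 65 tested members (37.6%, against 52% of all genes). The median log2 difference of the tested members was -1.20, against -0.01 over all genes tested. With precision weights from voom, 32 members were called. The 7 higher calls became 3, 1 and 1 without KI_Chd7del library 1, 2 or 3, where most of these segments no longer reached 10 in 3 libraries.

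In KI against WT, 33 tested members were called (19.1%, against 58.9% of all genes tested), 2 higher and 31 lower. The share called lower was 17.9% of members and 27.2% of all genes, and the share called higher was 1.16% of members and 31.8% of all genes. Ranges did not overlap for 40 tested members (23.1%, against 67.6% of all genes). The median log2 difference was -0.84, against 0.02 over all genes. Without KI library 3 the calls fell to 18, without WT library 1 to 21 and without WT library 3 to 22. In this comparison the share of members called was below that of all genes in each direction.

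In KI_Chd7del against WT, 99 tested members were called (57.2%, against 48.4% of all genes tested), 6 higher and 93 lower. The share called lower was 53.8% of members and 24.3% of all genes, and the share called higher was 3.47% of members and 24% of all genes. Ranges did not overlap for 101 tested members (58.4%, against 57.6% of all genes). The median log2 difference was -2.08, against 0.02 over all genes. By locus, 49 of 91 heavy, 42 of 79 kappa and 2 of 3 lambda segments were called lower. The 6 higher calls became 2, 1 and 1 without KI_Chd7del library 1, 2 or 3. This comparison shares its libraries with the other comparisons and is no independent evidence beside them.

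Segments called lower in KI_Chd7del libraries came from both loci. Ighv9-2 had 3, 3 and 6 in KI_Chd7del libraries, 84, 77 and 169 in KI libraries and 10, 21 and 9 in WT libraries, so that it was highest in KI and lowest in KI_Chd7del without overlap. Its log2 difference was -4.43 ± 0.43 in KI_Chd7del against KI and 2.95 ± 0.43 in KI against WT (SE). Ighv9-2 reached 10 in 3 libraries or more only through KI, so no p is given. It is 95.7% identical to Ighv9-1. Ighv14-4 had 0, 4 and 19 in KI_Chd7del libraries, 175, 51 and 345 in KI libraries and 28, 18 and 90 in WT libraries. Igkv14-130 had 6, 0 and 0 in KI_Chd7del libraries, 49, 25 and 51 in KI libraries and 4, 17 and 34 in WT libraries. Ighv14-4 fell in KI_Chd7del against KI, with limma adjusted p = 0.00703. Igkv14-130 reached 10 in 3 libraries or more only through KI, so no p is given. For both segments, KI_Chd7del and KI values did not overlap.

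Igkv4-70 had 6, 10 and 12 in KI_Chd7del libraries, 529, 143 and 131 in KI libraries and 168, 247 and 2852 in WT libraries. Its log2 difference was -4.43 ± 0.98 against KI (SE, limma adjusted p = 0.00703, and 0.201 with voom weights). Against WT it was -5.62 ± 0.98 (limma adjusted p = 0.00141, and 0.0962 with voom weights). The KI_Chd7del values lay below all 6 others, and the segment shares 63.9% of its 50-base stretches with transcripts of other genes. Ighv1-50 had 0, 8 and 5 in KI_Chd7del libraries, 258, 66 and 87 in KI libraries and 46, 116 and 3010 in WT libraries. Its call against KI (limma adjusted p = 0.0236) was lost with voom weights at 0.295, without KI library 1 at 0.0794, without KI library 3 at 0.0512 and without KI_Chd7del library 1 at 0.0705. Against WT its limma adjusted p was 0.00711, and 0.186 with voom weights.

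Ighv1-76 had 14, 3 and 9 in KI_Chd7del libraries, 214, 153 and 134 in KI libraries and 152, 1902 and 210 in WT libraries, and fell in KI_Chd7del against WT (limma adjusted p = 0.000798, and 0.0532 with voom weights). Igkv4-79 had 1, 0 and 11 in KI_Chd7del libraries, 25, 16 and 15 in KI libraries and 101, 50 and 280 in WT libraries. Ighv5-16 had 15, 0 and 46 in KI_Chd7del libraries, 117, 91 and 105 in KI libraries and 285, 489 and 230 in WT libraries. Both stepped down without overlap, and both fell in KI_Chd7del against WT, with limma adjusted p = 0.00118 and 0.00501.

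Lower values in KI against WT included Ighv1-41, an annotated pseudogene. It had 44, 3 and 48 in KI_Chd7del libraries, 33, 32 and 22 in KI libraries and 283, 308 and 346 in WT libraries, with a log2 difference of -3.40 ± 0.81 in KI against WT (SE, limma adjusted p = 0.00555). Igkv12-89 had 12, 10 and 31 in KI_Chd7del libraries, 131, 29 and 24 in KI libraries and 421, 434 and 398 in WT libraries, with a log2 difference of -3.18 ± 0.61 in KI against WT (SE, limma adjusted p = 0.00169). For both, the 3 WT libraries lay close together and above all others. Igkv2-137 had 16, 184 and 50 in KI_Chd7del libraries, 22, 15 and 71 in KI libraries and 170, 243 and 814 in WT libraries, and fell in KI against WT (limma adjusted p = 0.01). Igkv8-18 had 4, 3 and 0 in KI_Chd7del libraries, 37, 0 and 2 in KI libraries and 158, 23 and 115 in WT libraries. Its KI and WT values overlapped. Igkv8-18 reached 10 in 3 libraries or more only through WT, so no p is given. Its call in KI against WT was lost without KI library 2, KI library 3, WT library 1 or WT library 3.

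The second segment called higher in KI against WT was Igkv6-20, with 6, 69 and 12 in KI_Chd7del libraries, 359, 107 and 587 in KI libraries and 81, 69 and 26 in WT libraries. Its limma adjusted p of 0.0429 lay above 0.05 in 10 of 22 alternatives. It was 0.109 without KI library 1, 0.138 without KI library 3, 0.0519 without KI_Chd7del library 3, and 0.057, 0.0703 and 0.139 without WT library 1, 2 or 3. It fell in KI_Chd7del against KI (limma adjusted p = 0.00805).

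A small set of segments was seen in KI_Chd7del libraries and nearly absent from the others. Chosen after the values were seen, 5 members were at 10 or more in every KI_Chd7del library and below 4 in every KI and WT library: Ighv3-2, Ighv4-2, Ighv1-14, Ighv1-29 and Ighv8-11. All 5 lie in the heavy locus, and 4 of them are annotated as pseudogenes, Ighv8-11 being annotated as a gene. No member met the matching rule for KI, and Ighv1-49 met it for WT. By the same rule, 10 genes of the 16995 with a value of 10 or more were seen in KI_Chd7del alone, 24 in KI alone and 13 in WT alone. The ends of the 5 segments and of their closest V segment are shown so that the size of the difference between each pair can be seen. All lie on the minus strand of chromosome 12, with the last TGT in capitals as above. The 5 segments are at chr12:114033803-114034233 (Ighv3-2), chr12:114013144-114013606 (Ighv4-2), chr12:114646572-114647056 (Ighv1-14), chr12:114812321-114812745 (Ighv1-29) and chr12:115567149-115567591 (Ighv8-11). Their closest segments are at chr12:113964388-113964818 (Ighv3-1), chr12:113948282-113948796 (Ighv4-1), chr12:114708648-114709135 (Ighv1-19), chr12:114932371-114932782 (Ighv1-41) and chr12:115294062-115294504 (Ighv8-8).
Ighv3-2: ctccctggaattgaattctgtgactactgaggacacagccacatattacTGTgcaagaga
Ighv3-1: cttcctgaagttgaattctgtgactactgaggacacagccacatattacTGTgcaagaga
Ighv4-2: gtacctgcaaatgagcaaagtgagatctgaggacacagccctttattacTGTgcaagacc
Ighv4-1: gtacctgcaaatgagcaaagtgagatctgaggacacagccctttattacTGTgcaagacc
Ighv1-14: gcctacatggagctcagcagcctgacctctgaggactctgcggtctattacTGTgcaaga
Ighv1-19: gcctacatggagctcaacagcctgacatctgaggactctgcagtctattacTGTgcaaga
Ighv1-29: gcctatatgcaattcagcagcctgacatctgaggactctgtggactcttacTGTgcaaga
Ighv1-41: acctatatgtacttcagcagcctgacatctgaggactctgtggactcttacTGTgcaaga
Ighv8-11: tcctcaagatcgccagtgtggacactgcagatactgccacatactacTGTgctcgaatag
Ighv8-8: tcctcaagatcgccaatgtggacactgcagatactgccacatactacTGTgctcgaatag

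Ighv3-2 was the most abundant of these per length. It had 88, 888 and 142 in KI_Chd7del libraries and 0, 0 and 1 in KI libraries, and is listed at 0 in all WT libraries. In KI_Chd7del library 2 it was the second heavy segment, with 10.9% of the heavy sum. It is 95.1% identical to Ighv3-1 over the transcript, with 3 mismatches in the 60 bases shown, and shares 33% of its 50-base stretches with transcripts of other genes. Ighv3-1 had 17, 53 and 22 in KI_Chd7del libraries, 241, 180 and 52 in KI libraries and 134, 91 and 20 in WT libraries.

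Ighv4-2 had 12, 67 and 42 in KI_Chd7del libraries, 0, 0 and 1 in KI libraries and 0, 3 and 1 in WT libraries. Its last 60 bases match Ighv4-1 without a mismatch, and over the whole transcript the identity is 84.3%. That identity includes the difference in annotated length, 362 bases for Ighv4-2 and 414 for Ighv4-1. Of the 50-base stretches of Ighv4-2, 34.8% were shared. Ighv4-1 had 69, 7 and 9 in KI_Chd7del libraries, 448, 94 and 132 in KI libraries and 228, 153 and 374 in WT libraries. The pair thus differed in opposite directions between KI_Chd7del and the other groups, without overlap for either segment.

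Ighv1-29 had 31, 23 and 28 in KI_Chd7del libraries and is listed at 0 in all 6 other libraries. Ighv1-14 had 34, 51 and 13 in KI_Chd7del libraries, 1, 0 and 0 in KI libraries and 0, 1 and 0 in WT libraries. Ighv8-11 had 60, 20 and 28 in KI_Chd7del libraries, is listed at 0 in KI libraries and had 0, 0 and 2 in WT libraries. Identity to the closest segment was 88.0% for Ighv1-29, 87.9% for Ighv1-14 and 96.1% for Ighv8-11, and 12.6%, 13.3% and 19.4% of their 50-base stretches were shared. No fold is given where a group is listed at 0 or close to it.

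All 5 passed the filter on low values only through KI_Chd7del and were chosen by their pattern, so their values are a description and no p is given. They are among the members counted as called higher in KI_Chd7del. Ighv1-28, another pseudogene, had 12, 9 and 11 in KI_Chd7del libraries and is listed at 0 in all others, and reached 10 in too few libraries to be tested. Among the 5 genes outside the V segments that met the rule for KI_Chd7del, Ifi202b had 355, 1074 and 751 in KI_Chd7del libraries and is listed at 0 in all others. Ifi202b, an interferon-inducible gene, is known to be expressed in some inbred mouse strains and not in others, as V segments are known to differ between strains. The labels give C57BL/6 for all groups, and the part of strain in these values was not tested. The 7 pseudogenes together made up 5.32%, 12.8% and 3.76% of the heavy sum in KI_Chd7del libraries, 0.149%, 0.237% and 0.281% in KI libraries and 1.41%, 1.48% and 0.799% in WT libraries. Without the 5 segments, the log2 ratio of the V sums was -0.97 in KI_Chd7del against KI.

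Among kappa segments, Igkv11-125 rose in KI_Chd7del. It had 116, 177 and 164 in KI_Chd7del libraries, 7, 11 and 5 in KI libraries and 9, 27 and 5 in WT libraries, and shares no 50-base stretch with another V segment. The rise was 4.18 ± 0.52 against KI and 3.67 ± 0.52 against WT (log2, SE). Igkv11-125 reached 10 in 3 libraries or more only through KI_Chd7del and was named after its values were seen, so no p is given. Igkv7-33 had 24, 168 and 131 in KI_Chd7del libraries, 23, 14 and 24 in KI libraries and 91, 112 and 176 in WT libraries. Its limma adjusted p of 0.0352 in KI_Chd7del against KI lay above 0.05 in 9 of 22 alternatives, at 0.116 without KI_Chd7del library 2, 0.108 without library 3, 0.0694, 0.0947 and 0.0639 without KI library 1, 2 or 3 and 0.0522 without WT library 2. The WT counterpart, Ighv1-49, had 0, 0 and 2 in KI_Chd7del libraries, 2, 0 and 1 in KI libraries and 19, 36 and 16 in WT libraries. It reached 10 in 3 libraries only through WT, so no p is given.

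**Figure D4:**
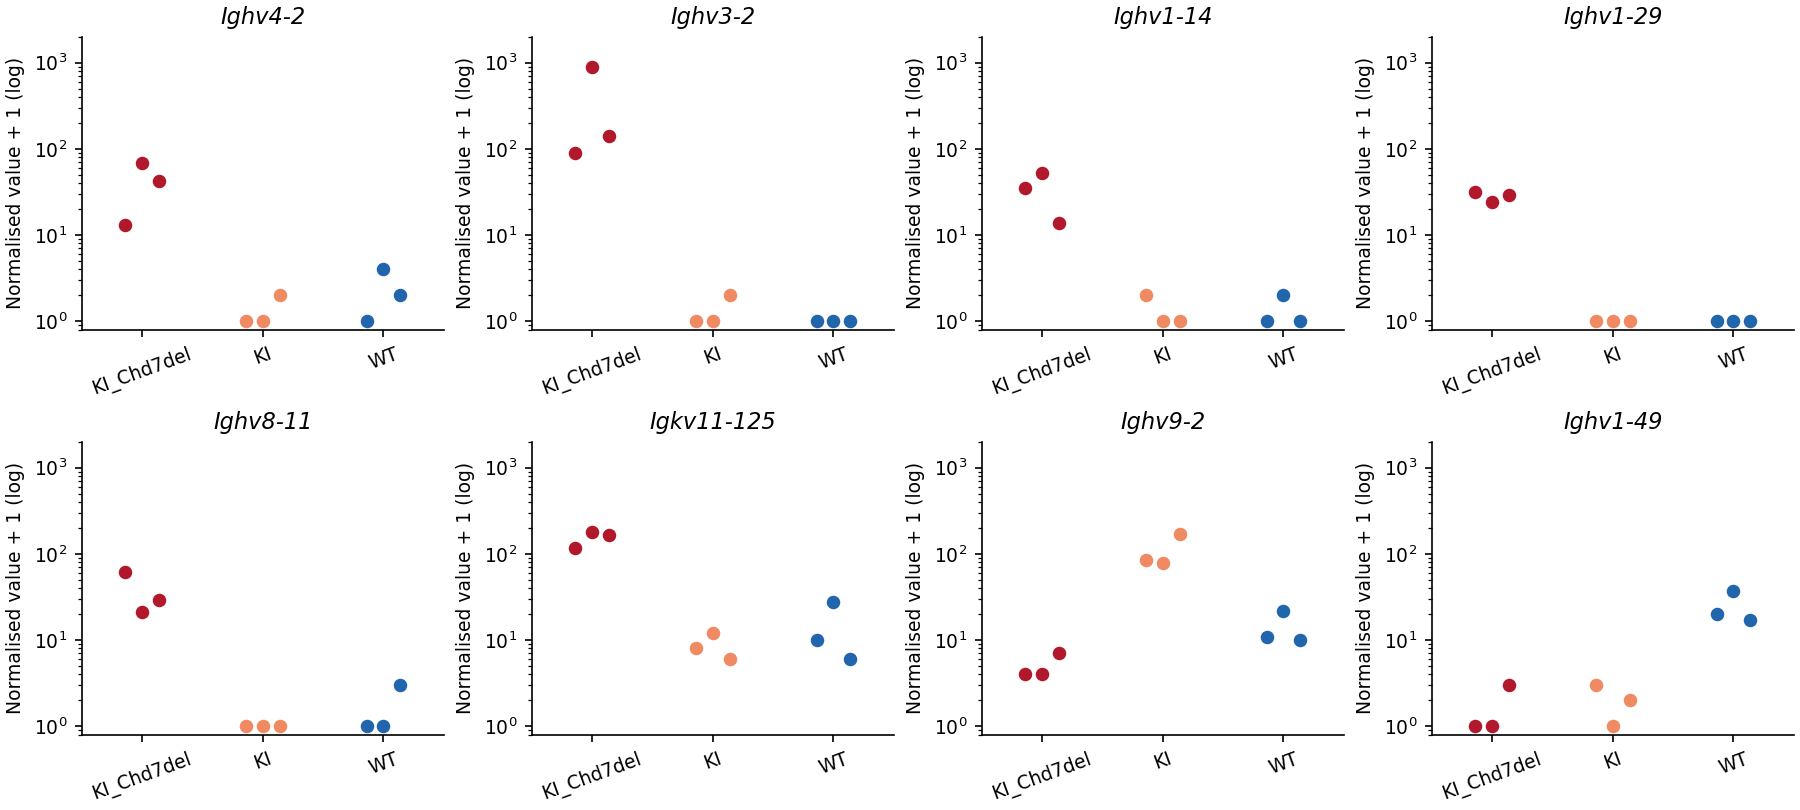
Normalised value + 1 on a log axis for 8 V segments, with 1 point per library and the groups in the order KI_Chd7del, KI and WT. The 5 segments from Ighv4-2 to Ighv8-11 and Igkv11-125 are high in the 3 KI_Chd7del libraries, Ighv9-2 is highest in the 3 KI libraries (84, 77 and 169), and Ighv1-49 is highest in the 3 WT libraries (19, 36 and 16).

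Heavy chain family and position differed in KI_Chd7del libraries. The Ighv1 family, the largest in the mouse, has 54 members here and lies mostly in the part of the locus far from the D segments. Its share of the heavy sum was 28.2%, 21.1% and 34.8% in KI_Chd7del libraries, 65.8%, 50.6% and 43.3% in KI libraries and 40.1%, 53.0% and 47.3% in WT libraries. All KI_Chd7del shares lay below all others. The 36 heavy segments farthest from the D segments, Ighv1-47 to Ighv1-85, held 14.1% ± 5.45 of the heavy sum in KI_Chd7del libraries, 25.4% ± 2.16 in KI libraries and 29.2% ± 7.81 in WT libraries (SD, n = 3 each). The highest KI_Chd7del share was 18.9% and the lowest shares elsewhere were 23.1% in KI and 20.6% in WT. The 36 segments nearest the D segments, Ighv5-2 to Ighv3-6, held 55.3%, 42.6% and 53.9% in KI_Chd7del libraries, 23.7%, 37.4% and 47.0% in KI libraries and 41.3%, 39.2% and 45.7% in WT libraries, with overlap.

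The small family Ighv7 showed the reverse in KI_Chd7del libraries. It has 3 members and held 13.1%, 10.4% and 22.1% of the heavy sum in KI_Chd7del libraries, 2.67%, 6.63% and 4.91% in KI libraries and 9.60%, 3.91% and 3.79% in WT libraries. The KI_Chd7del shares of Ighv7 lay above all others, while Ighv6 shares depended on Ighv6-6 in KI_Chd7del library 2, at 3.93%, 31.9% and 4.80% in KI_Chd7del libraries, 2.69%, 7.02% and 4.28% in KI libraries and 10.3%, 2.82% and 1.83% in WT libraries. At the kappa locus the family Igkv4, with 23 members, held 13.0%, 4.50% and 5.76% of the kappa sum in KI_Chd7del libraries, 16.1%, 15.1% and 13.4% in KI libraries and 8.41%, 9.94% and 13.5% in WT libraries. The KI_Chd7del shares of Igkv4 lay below the KI shares. When the kappa locus was cut in the same way by position, the shares of the distal, middle and proximal parts overlapped between the groups.

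Constant regions, which are joined to V segments by splicing, changed with the V sums. Of all genes tested, 17.5% rose and 22.9% fell in KI_Chd7del against KI, and 31.8% and 27.2% in KI against WT. The shares in KI_Chd7del against WT were 24% and 24.3%. Of 10 constant region genes tested, 0 rose and 3 fell in KI_Chd7del against KI, 0 rose and 5 fell in KI against WT, and 0 rose and 8 fell in KI_Chd7del against WT (limma adjusted p). With 1 library left out at a time, 1 to 4, 4 to 6 and 8 fell, the lowest of these without KI_Chd7del library 3, where 1 fell against KI, and 2 fell there without any 1 of the other KI_Chd7del and KI libraries. Igkc, the kappa constant region, had 10556, 25333 and 19822 in KI_Chd7del libraries, 53774, 30186 and 17849 in KI libraries and 54315, 60180 and 138985 in WT libraries. The kappa V sum over Igkc was 0.753, 0.697 and 0.689 in KI_Chd7del libraries, 0.618, 0.677 and 0.671 in KI libraries and 0.670, 0.624 and 0.595 in WT libraries. This ratio varied far less than either value, and the KI_Chd7del ratios lay above all others.

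The heavy V sum over the summed heavy constant regions went the other way. It was 0.129, 0.124 and 0.129 in KI_Chd7del libraries, 0.183, 0.177 and 0.172 in KI libraries and 0.189, 0.179 and 0.159 in WT libraries, so that the KI_Chd7del libraries lay below all others. Ighm, the IgM heavy chain, had 25451, 55458 and 47359 in KI_Chd7del libraries, 104351, 63959 and 32196 in KI libraries and 60231, 63849 and 258741 in WT libraries. Igha, the IgA heavy chain, had 5694, 8467 and 9429 in KI_Chd7del libraries, 20001, 14795 and 12911 in KI libraries and 39651, 45805 and 11133 in WT libraries. WT library 3 thus stood apart from the other WT libraries in isotype as well as in V usage, with Ighm at 91.5% of the heavy constant sum against 54.9% and 52.8%. Ighg2b, the IgG2b heavy chain, fell in all 3 comparisons, with 1085, 547 and 1135 in KI_Chd7del libraries, 1918, 2346 and 2027 in KI libraries and 5355, 4217 and 7062 in WT libraries (limma adjusted p = 0.0071 for KI_Chd7del against KI).

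J segments, tested as 8 genes, gave 0 higher and 3 lower calls in KI_Chd7del against KI, where 22.9% of all genes were called lower. They gave 0 and 0 in KI against WT (27.2% of all genes lower) and 0 and 6 in KI_Chd7del against WT (24.3%). Their sums were 169, 364 and 318 in KI_Chd7del libraries, 836, 682 and 385 in KI libraries and 700, 730 and 1309 in WT libraries, so that KI_Chd7del lay below all others. The 3 calls against KI became 1 without KI_Chd7del library 1 or KI library 1, 2 without KI library 2 and 5 without KI library 3. Of 22 D segments, Ighd1-1 could be tested, with 10, 10 and 19 in KI_Chd7del libraries, 4, 4 and 7 in KI libraries and 3, 3 and 0 in WT libraries. It passed the filter only through KI_Chd7del, where it is highest, so no p is given.

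Plasma cell markers moved in both directions, and in KI against WT their shares called were close to those of all genes. Jchain, which links IgM and IgA multimers and marks antibody-secreting cells, had 2918, 6764 and 4972 in KI_Chd7del libraries, 12355, 8020 and 4620 in KI libraries and 17288, 17074 and 38219 in WT libraries. The V sum was 3.95 to 4.48 times Jchain in KI_Chd7del libraries, 4.59 to 4.74 times in KI libraries and 3.41 to 3.74 times in WT libraries. Of all genes tested, 17.5% rose and 22.9% fell in KI_Chd7del against KI, and 31.8% and 27.2% in KI against WT. The shares in KI_Chd7del against WT were 24% and 24.3%. Of the 9 plasma cell markers, 1 rose and 3 fell in KI_Chd7del against KI, 3 rose and 2 fell in KI against WT, and 2 rose and 4 fell in KI_Chd7del against WT. Their summed values were 12371 to 17471 in KI_Chd7del libraries, 19528 to 26617 in KI libraries and 27727 to 49905 in WT libraries, and none was at 0. The calls varied with single libraries, from 0 to 3 lower in KI against WT (0 without KI library 3 or WT library 3, and 1 without KI library 2 or WT library 1) and from 1 to 4 lower in KI_Chd7del against WT (1 without WT library 3). The rise against KI was lost without KI_Chd7del library 2 and became 3 rises without KI_Chd7del library 1. The 2 rises in KI_Chd7del against WT became 0 without WT library 2 and 1 without WT library 1 or KI_Chd7del library 1 or 3. The part of plasma cells in the V sums was not tested.

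Mature B cell markers separated WT from both knock-in groups. Of all genes tested, 27.2% fell in KI against WT and 24.3% in KI_Chd7del against WT, and 17.5% rose and 22.9% fell in KI_Chd7del against KI. All 8 mature B markers fell in KI against WT and 7 fell in KI_Chd7del against WT, while 3 rose and 0 fell in KI_Chd7del against KI (limma adjusted p). Their sums were 695, 766 and 1253 in KI_Chd7del libraries, 924, 831 and 768 in KI libraries and 2718, 3477 and 2900 in WT libraries. Ms4a1, which encodes CD20, had 28, 44 and 232 in KI_Chd7del libraries, 56, 44 and 35 in KI libraries and 744, 993 and 769 in WT libraries. The 3 calls in KI_Chd7del against KI became 1 or 2 with any 1 library left out, with 2 falls without KI_Chd7del library 3 and 1 without KI library 2. Blk rose in KI_Chd7del against KI with each library left out and fell in both comparisons with WT, with 57, 87 and 78 in KI_Chd7del libraries, 26, 16 and 19 in KI libraries and 265, 324 and 257 in WT libraries. The part of mature B cells in the V sums was not tested.

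Group mean sums of the gene lists of early B cell development ran against those of the V segments, with overlap between the libraries of some groups. Of all genes tested, 17.5% rose in KI_Chd7del against KI, 31.8% in KI against WT and 24% in KI_Chd7del against WT. The recombinase genes Rag1, Rag2 and Dntt, the last of which adds bases at the joints, summed to 8550, 8209 and 15186 in KI_Chd7del libraries, 4257, 6545 and 6683 in KI libraries and 2350, 1541 and 1399 in WT libraries. All 3 rose in KI against WT and in KI_Chd7del against WT, and Dntt alone passed in KI_Chd7del against KI (limma adjusted p = 0.0115), joined by 1 other without KI_Chd7del library 2. Rag1 had 2886, 2026 and 6136 in KI_Chd7del libraries, 1513, 2755 and 2701 in KI libraries and 461, 405 and 261 in WT libraries. The 4 surrogate light chain genes, which pair with the heavy chain before a light chain is made, all rose in KI_Chd7del against KI and against WT, and 0 of 4 passed in KI against WT, where 1 passed without KI library 1 or KI_Chd7del library 2 or 3. Against WT, 3 of them passed without KI_Chd7del library 3, WT library 2 or WT library 3. The surrogate light chain genes summed to 3374 to 6055 in KI_Chd7del libraries, 1472 to 2429 in KI libraries and 1552 to 2015 in WT libraries, so that KI and WT overlapped. Igll1 had 1436, 1296 and 2371 in KI_Chd7del libraries, 523, 948 and 698 in KI libraries and 840, 671 and 634 in WT libraries.

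Of 12 early B markers, 6 rose and 1 fell in KI_Chd7del against KI, 4 rose and 1 fell in KI against WT, and 9 rose and 1 fell in KI_Chd7del against WT. Of all genes tested, 17.5% rose and 22.9% fell in KI_Chd7del against KI, and 31.8% and 27.2% in KI against WT. The shares in KI_Chd7del against WT were 24% and 24.3%. The share of early B markers that rose in KI against WT was close to that of all genes. The 6 rises against KI became 0 without KI library 1, 3 without KI_Chd7del library 3, 4 without KI_Chd7del library 1 or KI library 3 and 9 without KI_Chd7del library 2, and the fall in KI against WT was lost without KI library 1 or 3 or WT library 2 or 3, and that in KI_Chd7del against WT without WT library 2 or 3. Their sums were 14216 to 25465 in KI_Chd7del libraries, 12636 to 16438 in KI libraries and 9400 to 10659 in WT libraries. Ebf1, a factor that commits cells to the B lineage, had 1587, 1154 and 2459 in KI_Chd7del libraries, 730, 1157 and 996 in KI libraries and 431, 418 and 344 in WT libraries. The octamer list holds Pou2f1 and Pou2f2, which encode factors that bind the promoters of V segments, and their coactivator gene Pou2af1. It gave 1 rise and 1 fall among 3 genes in KI_Chd7del against KI, 2 and 0 in KI against WT, and 3 and 0 in KI_Chd7del against WT. The rise against KI was that of Pou2af1, which is also counted among the early B markers, and was lost without KI library 1. Pou2f2, which encodes OCT2, had 1685, 2253 and 2296 in KI_Chd7del libraries, 2038, 2346 and 2415 in KI libraries and 514, 626 and 605 in WT libraries.

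**Figure D5:**
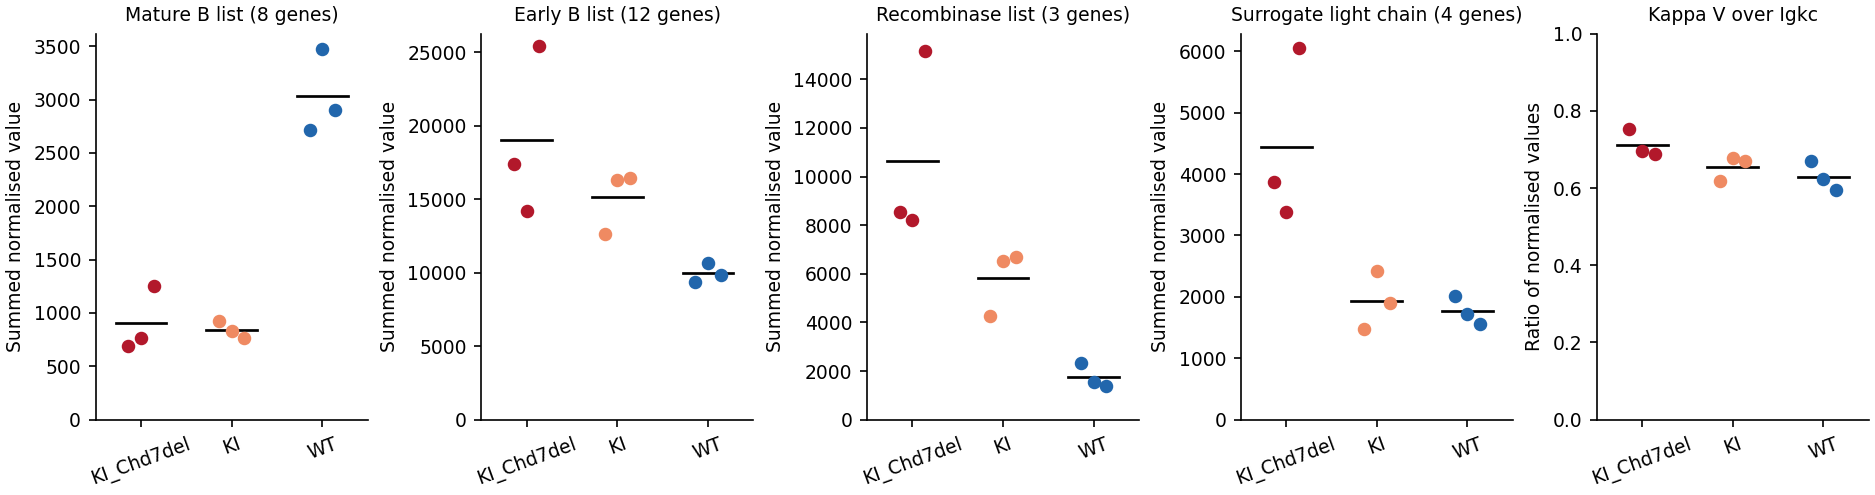
Summed normalised values of 4 B lineage gene lists and the ratio of the kappa V sum to Igkc, with 1 point per library and a line at the mean of each group of 3. The mature B sums are highest in the 3 WT libraries (2718, 3477 and 2900), the recombinase sums are highest in the 3 KI_Chd7del libraries (8550, 8209 and 15186), and the kappa ratio stays between 0.595 and 0.753 in all 9 libraries.

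Lists for other lymphoid cells were measured beside these. Of all genes tested, 17.5% rose and 22.9% fell in KI_Chd7del against KI, and 31.8% and 27.2% in KI against WT. The shares in KI_Chd7del against WT were 24% and 24.3%. Of 9 T cell markers, 0 rose and 1 fell in KI_Chd7del against KI, 2 rose and 1 fell in KI against WT, and 1 rose and 1 fell in KI_Chd7del against WT, with sums of 818 to 1761 in KI_Chd7del libraries, 1058 to 2111 in KI libraries and 1115 to 1606 in WT libraries. Without KI_Chd7del library 3, 2 T cell markers fell against KI and 4 against WT, and none fell against KI without KI_Chd7del library 1 or KI library 2. Of 7 markers of plasmacytoid dendritic cells, which also express recombinase genes, 2 rose and 1 fell in KI_Chd7del against KI, and 6 rose and 1 fell in both comparisons with WT. The fall against KI was lost without KI_Chd7del library 2 or KI library 1 or 3, and that of KI_Chd7del against WT without KI_Chd7del library 2 or WT library 1 or 2. Their sums were 16480 to 19316 in KI_Chd7del libraries, 13115 to 15784 in KI libraries and 6726 to 8423 in WT libraries. Of the 7 T cell receptor V segments that could be tested, 0 rose and 1 fell in KI_Chd7del against KI, and 3 rose and 0 fell in both comparisons with WT. With 7 of 150 annotated T cell receptor V segments tested, these counts are too few for a contrast with the immunoglobulin V segments. Summed over all 150, the values were 664 to 823 in KI_Chd7del libraries, 1159 to 1371 in KI libraries and 203 to 286 in WT libraries. None of the markers in these cell type lists was at 0 in every library, and the part of these cells in the V values was not tested.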

How the data were processed

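RNA-seq was made from CD117-selected bone marrow cells (total RNA) of pIpC-treated mice, 3 libraries in each of the groups KI_Chd7del, KI and WT. The deposited table holds 1 column per library and 43629 gene identifiers. Per the submitters' processing notes, the tools named are CASAVA 1.8.2, STAR 2.4, RSEM and DESeq2 with the build GRCm38, and the order of the steps and the annotation release are not given in the sources used here. The deposited values are treated as a score: they are whole numbers whose gaps and doublings at low values look like reads divided by 1 size factor per library and rounded. This was not tested and the size factors are not in the table, so counts were not modelled and the reads behind a value are unknown. Column totals therefore do not give sequencing depth.

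Symbols, gene types, positions and transcript sequences came from GENCODE M21 (GRCm38), and 42462 identifiers had a symbol. From the deposited values, log2(value + 1) was tested with limma 3.58.1 in R 4.3.3, with a mean-variance trend, all 9 libraries in 3 groups, no block, and a 2-sided test. The test covered the 15997 genes with a value of 10 or more in 3 libraries or more, and its p-values were adjusted by Benjamini-Hochberg over all of them, with a threshold of 0.05. Fold changes on this scale understate those of low genes. Sums, usage shares and Pielou's evenness (Shannon entropy over the log of the number of members) were computed per library without a test. Stretches of 50 bases that a member shares with the transcript of any other annotated gene, on either strand, were counted from the annotated transcripts. The identity to the closest V segment came from the same transcripts. The fit was run on simulated data with the same assumed dispersion for every gene. That setting does not cover the wider spread of the V segments, so it gives no error rate for them. Named members were the 10 heavy, 8 kappa and 3 lambda segments of highest mean, up to 5 per comparison and direction with the largest called change, the leading segment of each library and locus, and those at the threshold. Of the marker lists, up to 4 genes with the smallest adjusted p were named. The segments seen in 1 genotype, Igkv11-125, Igkv7-33 and the compared closest segments were named after their values were seen. The members and lists were chosen with earlier results of these data known. Alternatives covered filters, pseudocounts, scalings, weights, the libraries in the fit, the replicate block and each library left out.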

Additional observations from a re-analysis of the deposited data

How the results depend on the processing

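Most numbers of called V segments stayed within 1.5 times the value given. The log2 ratios of the sums kept their direction. These ratios and most evenness differences stayed within the pooled within-group SD of the value given. The evenness difference of KI_Chd7del against WT changed sign without KI_Chd7del library 2 or WT library 1. With voom weights 32 segments were called in KI_Chd7del against KI, in place of 54. Under the other settings that kept all libraries, calls ran from 47 to 58, from 22 to 44 and from 86 to 109 in KI_Chd7del against KI, KI against WT and KI_Chd7del against WT, and voom weights gave 39 and 79 in the comparisons with WT. Leaving out 1 library at a time gave 39 to 57, 18 to 37 and 74 to 104 calls in the same comparisons. It gave log2 ratios of the sums from -1.23 to -0.52, from -1.53 to -0.67 and from -2.29 to -1.60, and evenness differences from -0.092 to -0.057, from 0.033 to 0.082 and from -0.040 to 0.0087. With the inverse Simpson index over the number of members, the evenness difference was -0.119 in KI_Chd7del against KI and 0.104 in KI against WT. Scaling by column totals moved the median log2 difference of all genes to 0.246 in KI against WT and 0.264 in KI_Chd7del against WT, with 26 and 92 segments called. Under that scaling Xbp1, a plasma cell factor, turned in KI_Chd7del against WT, at 0.036 in place of -0.21 on the log2 scale, with adjusted p = 0.616 in place of 0.0146 in limma. Among single genes, 3045 values under the alternatives kept their direction and side of the threshold, 230 lost their call and 1 turned. Deviations from group means correlated at -0.153 to 0.109 between same-numbered libraries and at -0.167 to 0.208 between differently numbered ones. With 3 libraries per group, this cannot decide whether the numbers pair the libraries. With the replicate block 54, 33 and 97 segments were called, against 54, 33 and 99 without it. Chosen after seeing the data, evenness from values per transcript length differed by -0.072, 0.061 and -0.011 in the order of comparisons above, and the log2 ratios of the sums without the 5 segments seen in KI_Chd7del alone were -0.97, -1.12 and -2.09. The depth behind the values is unknown, so low values carry no counting error here, and near-identical segments limit single values.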

Other observations

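Besides the 5 V segments and Ifi202b, 4 genes were at 10 or more in every KI_Chd7del library and below 4 elsewhere. Ceacam3 had 41, 70 and 43 in KI_Chd7del libraries and 0, 0 and 1 in KI libraries, and is listed at 0 in WT libraries. Pgbd5, a transposase-derived gene, had 43, 29 and 14 in KI_Chd7del libraries, 2, 2 and 0 in KI libraries and 0, 0 and 2 in WT libraries. Gm19791 and Gm38050 are annotated as pseudogenes, with 14, 23 and 24 and with 12, 23 and 17 in KI_Chd7del libraries. Among the genes that met the same rule for WT, Klra4 and Klra8, of the Ly49 receptor family of natural killer cells, had 3, 2 and 2 and 2, 3 and 2 in KI_Chd7del libraries, 0, 0 and 2 and 1, 0 and 2 in KI libraries, and 42, 50 and 42 and 33, 43 and 34 in WT libraries.

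Prdm1, a factor of plasma cells that other blood cells also express, had 46, 71 and 82 in KI_Chd7del libraries, 434, 359 and 370 in KI libraries and 69, 74 and 123 in WT libraries. It was highest in KI, whereas the V sums and Jchain were highest in WT libraries.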
